A study of Homo sapiens with 5 samples.

Results

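The carbonic anhydrase cluster of human chromosome 8 holds CA1, CA2, CA3 and CA13 side by side. Called transcription start sites of this cluster were taken as every call between 85.1 and 85.6 Mb of hg38 chromosome 8 in both deposited lists, 1 list per strand. This gave 76 calls of 28283 in all, of which 68 were reverse calls and 8 forward calls. Each call was assigned to a listed gene, to another gene or to a gap by the RefSeq coordinates of assembly GRCh38.p14, and its strand, the gap to the next call and its pairing with a call of the other strand were recorded. The rule used position only, and hg38 and GRCh38.p14 number the bases of chromosome 8 alike.

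The series measured nascent transcription by PRO-seq, in which engaged RNA polymerases in isolated nuclei extend their transcripts with biotin-labelled nucleotides, so that only new RNA is pulled down for sequencing. Its 5 libraries came from HUDEP-2, an immortalised line of human erythroid progenitors. Of these, 3 were sg1617-edited single-cell clones, 1 with a 1 bp insertion, 1 with a 13 bp deletion and 1 with a 15 bp deletion, and 2 were unedited wild-type cells. Each edit was represented by 1 clone. The guide sg1617 targets the erythroid enhancer of BCL11A, a repressor of fetal globin genes. The lists carried no column per library, so edited and unedited cells could not be compared at the carbonic anhydrase genes. The calls were made on 1 alignment whose name carries no edit but matches no sample, so whether they come from unedited cells, an edited clone or a pool is unknown, and the values below have no replicate. The labelled cell type was set beside its markers. GATA1, KLF1, ALAS2, SLC4A1, TFRC and HBB, 6 of 6 erythroid markers, had a call at an annotated end. Of 9 markers of lymphoid cells, myeloid cells and hepatocytes 0 had one, and of all protein-coding genes 42.2% had one. The marker lists were chosen with earlier results of these data known, the calls of TFRC included, so they are no independent check.

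Carbonic anhydrases catalyse the reversible hydration of carbon dioxide to bicarbonate and a proton. In red cells this reaction lets carbon dioxide leave the tissues as plasma bicarbonate, which is exchanged for chloride through the band 3 protein. CA1 and CA2 are the abundant cytosolic forms of the mature red cell, CA2 being by far the faster enzyme, whereas CA3 is a slow enzyme typical of skeletal muscle and CA13 a cytosolic form found in several tissues. CA1 is read from right to left, on the reverse strand, and CA2, CA3 and CA13 from left to right. The human CA1 gene is known to have an erythroid promoter that lies far upstream of its coding exons.

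The red cell genes CA1 and CA2 carried calls and their neighbours CA3 and CA13 carried none. A gene counted as called if at most 500 bp separated its left end from a forward call, or its right end from a reverse call. By this rule 2 of the 4 genes were called, against 42.2% of all 19974 protein-coding genes on chromosomes 1 to 22 and X, so the count is close to the background. CA1 (gene ID 759, 85327608 to 85378113) had its start call at 85378113, the annotated end base itself, an offset of 0 bp. CA2 (gene ID 760, 85464007 to 85481493) had its start call at 85464006, 1 base upstream. In the lists as a whole, 30.7% of genes called at 1 end had a call within 1 bp of that end, so such exact placement was common.

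CA3 (gene ID 761, 85438859 to 85449040) had 0 calls on both strands, also with 500 bp added on either side of the gene. It lay in a stretch of 80588 bp without any call, from 85383241 to 85463829, and the nearest call was 14789 bp beyond its right end. CA13 (gene ID 377677, 85245458 to 85284073) likewise had 0 calls. It lay in a stretch of 104221 bp without any call, from 85220375 to 85324596, and its left end, where the gene starts, was 25083 bp from the nearest call. The lists give presence of a call and no level, so transcription of CA3 and CA13 below the caller's minimum cannot be told from none. A call that is missing also does not separate few cells using a start from little transcription per cell.

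**Figure D1:**
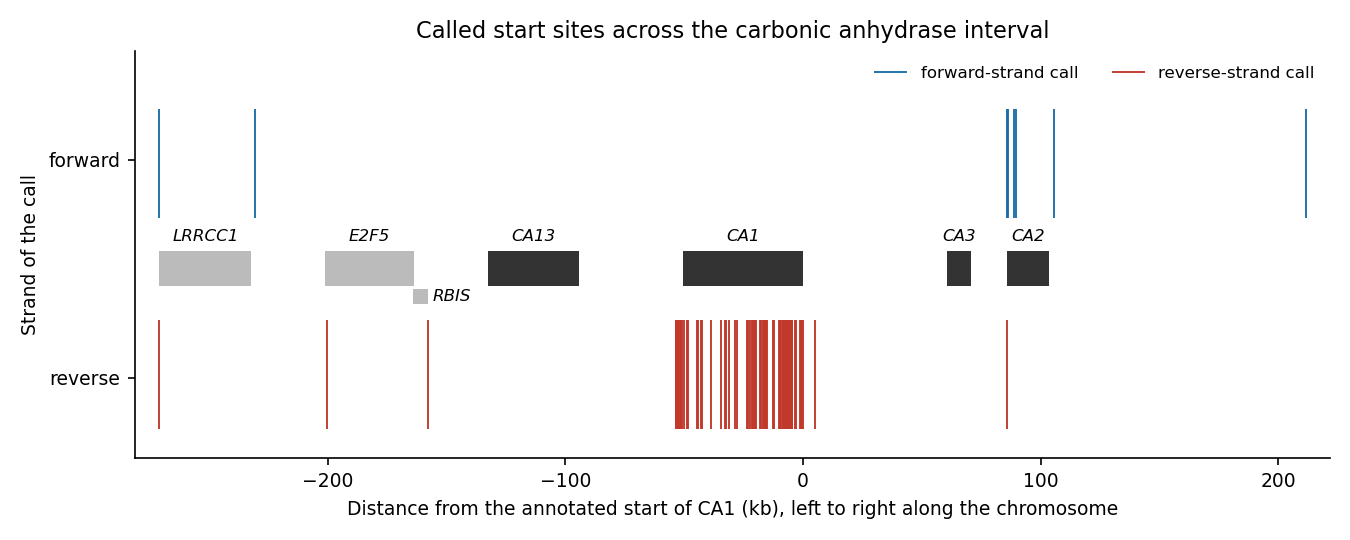
Position of the 76 calls of the interval, in kb from the annotated start of CA1 (horizontal axis), with forward calls above and reverse calls below the gene bars. Dark bars are the 4 carbonic anhydrase genes and grey bars are LRRCC1, E2F5 and RBIS; the reverse calls crowd over CA1 and a few forward calls stand at CA2, while CA3 and CA13 have 0.

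CA1 and CA2 differed in how their calls were arranged. CA1 held 54 reverse and 0 forward calls in 50506 bp, or 1.07 calls per kb. CA2 held 3 forward and 0 reverse calls in 17487 bp, or 0.172 per kb, and with 500 bp added on either side it had 4 forward calls and 1 reverse call. The 3 calls inside CA2 lay at 85464323, 85466760 and 85467814, which is 316, 2753 and 3807 bp downstream of the annotated start. CA2 thus had all its internal calls in the part of the gene near its start, and none beyond. Of the 8237 protein-coding genes called at 1 end, 3.01% had at least 4 calls on their own strand and 1.44% at least 5. CA2 had 4 when calls up to 500 bp upstream are included. The own strand of a gene here is that of the call at its end, and annotated strands were not used.

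The start call of CA2 was paired and that of CA1 was not. A call was named paired if the opposite strand had a call at most 1000 bp upstream of it, the arrangement made when polymerases leave a promoter in both directions. At CA2 a reverse call at 85463829 lay 177 bp upstream of the start call. This reverse call also fell inside CA3-AS1, a non-coding gene annotated from 85441806 to 85464915, 1086 bp from that gene's right end, so it was no start call of CA3-AS1 by the 500 bp rule. The start call of CA1 had no forward call within 1000 bp upstream. The nearest forward call on that side was the CA2 start call itself, 85893 bp away. Among all genes called at 1 end, 34.0% likewise had a start call that was not paired, so an unpaired start is not rare. Forward transcription upstream of CA1 that stayed below the caller's minimum cannot be told from none.

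Forward calls were missing over a wide stretch around CA1. Between the forward calls at 85147649 and 85464006, 316 kb apart, there was none, and this stretch takes in E2F5, RBIS, CA13, CA1 and CA3. Of 14026 gaps between neighbouring forward calls elsewhere in the lists, 14.0% were at least as long, and their median was 34.1 kb. Upstream of CA1 there was 1 further reverse call, at 85383241, 5128 bp before the annotated start, in the gap towards CA3. It was not paired.

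The calls of CA1 formed a run that began at the start and continued past the end of the gene. It comprised 63 reverse calls from 85378113 down to 85324596, 54 inside CA1 and 9 beyond its left end. The run held 82.9% of the calls of the interval in 10.7% of its length. Of the 76 calls of the interval 5 were paired, or 6.58%, and outside the interval 57.7% of 28083 calls were. None of the 63 calls of the run was paired, which for counting error alone allows a share of up to 4.76% by a limit of 3 counts and up to 5.69% by the exact Clopper-Pearson 95% interval. The other 13 calls of the interval included 5 paired ones, 38.5% (exact Clopper-Pearson 95% interval 13.9 to 68.4%). Calls of 1 run share a gene and are not independent, so the interval covers counting error only. All 63 calls of the run lay in the stretch of 316 kb without a forward call, so none could be paired. The limits for the run thus count 1 absence 63 times.

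Within CA1 the calls were denser towards the start. The first 5 kb held 9 calls and the next 5 kb held 14, the highest density in the gene at 2.80 per kb. Bins of 5 kb from there on held 2, 8, 7, 2, 4, 1 and 4 calls, and the last 5506 bp held 3. The upstream part of the gene, divided at its midpoint, held 40 calls and the downstream part 14, so 74.1% lay upstream of the midpoint. Over the 119 genes with at least 5 own-strand calls the median share upstream of the midpoint was 80.0%, and 68 genes, CA1 included, had a share at least as high as CA1. In TFRC the share was 68.4%. Shares like that of CA1 were thus common among genes with runs, but they are partly fixed by the rule. Each of the 119 genes was required to have a call near its start. With a median of 5 calls per gene, that call weighs more than it does in CA1.

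The densest stretches were compact clusters, here calls with no more than 500 bp between neighbours. The start cluster had 5 calls, at 85378113, 85377850, 85377597, 85377267 and 85376847, covering 1266 bp. A cluster of 9 calls from 85373658 to 85371039 began 4455 bp downstream of the start, and one of 6 calls from 85370531 to 85368678 followed it. Between the start cluster and the cluster of 9 there were only 2 calls, at 85375239 and 85374671. The non-coding gene LOC124901970, annotated inside CA1 from 85361571 to 85372738, overlapped 19 of the reverse calls and 0 forward calls. Its strand is not given in the table used, and reverse calls there cannot be divided between it and CA1. Of its 19 calls, 2 lay within 500 bp of its right end, the nearer 42 bp inside that end. With the call at 85373008, beyond that end, 3 reverse calls met the 500 bp rule. LOC124901970 was thus called by that rule, through calls that also belong to the CA1 run.

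Sparse stretches interrupted the run. Of the gaps between neighbouring calls inside CA1, 7 of 53 were over 2000 bp long, and 2 of these 7 lay wholly upstream of the midpoint, where the bin from 10 to 15 kb held 2 calls. The longest was 4196 bp, between 85354692 and 85350496. The next were 4150 bp, between 85343512 and 85339362, and 4037 bp, between 85333645 and 85329608. These 3 gaps lay 23421 to 48505 bp from the start.

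Past the annotated end of the gene the calls came close together again. The last call inside CA1, at 85327968, lay 360 bp before the end, and the 9 calls beyond it ran from 85327273 to 85324596, 335 to 3012 bp past the end. From the last call inside the gene onward the median gap was 296 bp, against 492 bp inside the gene (quartiles 293 and 1039 bp). On the far side of 85324596 the next call on the reverse strand was that of RBIS, at the other edge of the stretch around CA13. Of all genes called at 1 end, 13.8% had any call on their own strand within 5 kb past the end, and 8 genes, 0.0971%, had 9 or more, CA1 among them. The highest number was 11.

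**Figure D2:**
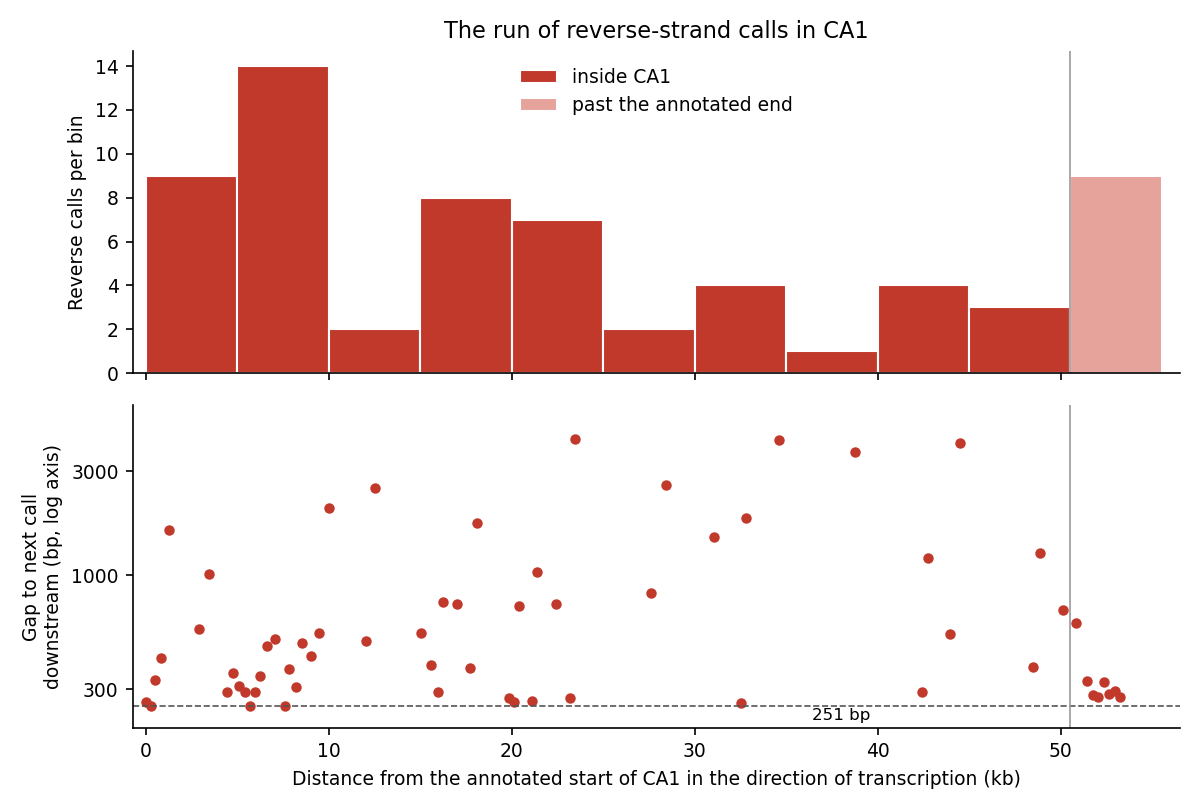
Upper panel, reverse calls per bin (5 kb, with the last bin inside the gene 5506 bp wide) against distance from the annotated start of CA1 in kb; lower panel, gap in bp from each call to the next one downstream, on a log axis. The grey line marks the annotated end of CA1 and the dashed line the length of 251 bp; calls are most frequent 5 to 10 kb from the start, the longest gaps, of 4196, 4150 and 4037 bp, lie in the downstream part of the gene or near its middle, and the 9 calls past the end are closely spaced.

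Gaps between neighbouring calls inside CA1 were short compared with the lists as a whole. The sets are unlike, since a gap inside CA1 cannot exceed the length of the gene, whereas gaps elsewhere also run between genes. Their median was 492 bp and 50.9% were at most 500 bp, whereas outside the interval 12.1% of 28037 gaps were at most 500 bp and the median was 34470 bp. The smallest gap in CA1 was 252 bp. In the lists of chromosomes 1 to 22 and X only 2 gaps were shorter than 251 bp, while 289 measured 251 to 260 bp, of which 4 were inside CA1. The spacing of the closest calls in CA1 thus stood at the shortest length the lists commonly hold, so closer spacing cannot be read from the lists. Whether the calls of the run mark initiation was not tested.

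Other genes with long runs were set beside CA1. TFRC, ITGA4 and SLC25A37 were taken from earlier results of the same lists and are not the only long runs. SLC25A37 had 16 own-strand calls, fewer than some genes that were not compared here. TFRC, the transferrin receptor that brings iron into erythroid cells, had 38 calls on its own strand, with a median gap of 449 bp and 56.8% of gaps at most 500 bp. In ITGA4, an integrin subunit, the median gap was 940 bp with 30.4% at most 500 bp, and in SLC25A37, the mitochondrial iron importer, it was 802 bp with 46.7%. By median gap CA1 was nearest to TFRC, and by the share of gaps at most 500 bp, 50.9%, it was nearest to SLC25A37. TFRC also continued past its end, with 6 calls within 5 kb, against 9 for CA1, 4 for ITGA4 and 0 for SLC25A37. TFRC, ITGA4 and SLC25A37 each had a paired start call, at distances of 178, 144 and 231 bp, whereas that of CA1 was unpaired. Among the 119 genes with at least 5 own-strand calls, 32.8% had an unpaired start call.

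CA1 combined length with density. Ranked by calls per kb it was 108th of 8237 called genes and 21st of the 119 with at least 5 calls. Among the 42 of these genes that were at least as long as CA1, it had the highest density, and the next was ITGA4 with 0.294 per kb. This length limit is that of CA1 itself and leaves out TFRC. At 32807 bp TFRC was shorter than CA1 and denser, with 1.16 calls per kb. The median of all 119 was 0.213 per kb and 5 calls. CA1 and TFRC held 0 calls on the opposite strand, as did 26 of the 119 genes, or 21.8%. The other genes without opposite calls had 8 own-strand calls at most, BEST1 among them. The start call of BEST1, at 61965629, also lay within the span of FTH1, 61964285 to 61967634, which was counted on the same strand. Own strands came from the called end and not from annotation, so the 119 genes and the 26 can include calls of a neighbouring gene. The median number of opposite calls over the 119 genes was 2 and the highest 9.

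**Figure D3:**
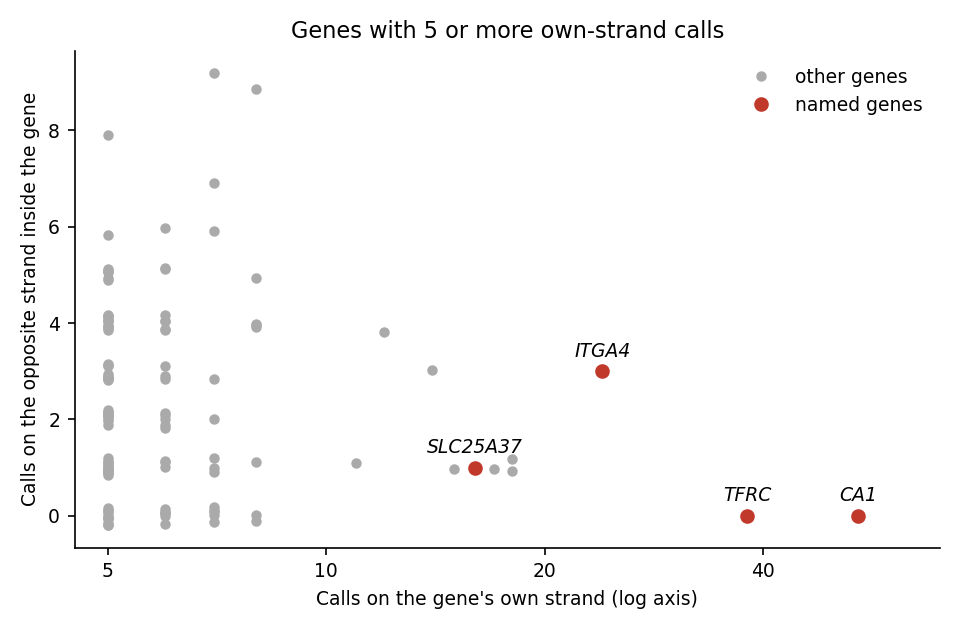
Calls on the opposite strand inside the gene (vertical axis, slightly jittered for the grey points) against calls on the gene's own strand (log axis) for the 119 genes with at least 5 own-strand calls. CA1 with 54 calls and TFRC with 38 stand at the far right with 0 opposite calls, and ITGA4 has 3.

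The run set the interval apart in the balance of its strands. When chromosomes 1 to 22 and X were divided into tiles of 500 kb, of which 1 was the interval, 3502 tiles held a call, with a median of 5 calls and a median difference between strands of 1. The interval had 60 more reverse than forward calls, the largest difference of all tiles. The next was 42, in the tile of chromosome 3 that starts at 195600000 and holds TFRC, with 4 forward and 46 reverse calls. By total number of calls the interval ranked 6th. The choice of tiles was made after the run had been seen, and these ranks describe the lists without a test.

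The calls left of CA13 lay at the starts of LRRCC1 and RBIS, inside E2F5 or in a gap between genes. LRRCC1, a centrosomal protein gene, had a start call at 85107237, 1 base upstream of its annotated start, with a paired reverse call 189 bp upstream at 85107048. RBIS, a ribosome biogenesis factor gene, had its start call at 85220375, also 1 base upstream, and this call was not paired. E2F5, an E2F family transcription factor gene, had no forward call. A reverse call at 85177962 lay inside E2F5 and 921 bp beyond the right end of the divergent transcript E2F5-DT, so that neither gene was called. A forward call at 85147649 lay between LRRCC1 and E2F5-DT. To the right of CA2 there were 2 forward calls, 1 at 85483763, 2270 bp past the annotated end of CA2, and 1 at 85589768, 108275 bp past it. LOC105375937, LOC124901969 and LOC105375936, non-coding genes in the same interval, held 0 calls, and LOC105375933 held the pair at the LRRCC1 start but was not called at its own ends.

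Outside the cluster few genes of the carbonic anhydrase family had a promoter call. The other 11 genes of the family are CA4, CA5A, CA5B, CA6, CA7, CA8, CA9, CA10, CA11, CA12 and CA14. Of these, 1 had a promoter call, against 42.2% of all protein-coding genes, and 9 had 0 calls even with 500 bp added on either side. The share of all protein-coding genes with 0 calls was not counted, so the 9 genes have no background beside them. The called gene was CA8, a member without carbonic anhydrase activity, which lies on chromosome 8 from 60185412 to 60281400. Its call lay 4 bp inside the right end, and 2 forward calls were found in or near the gene. CA11, also inactive as an enzyme, had 2 reverse calls by the same count, neither of which met the rule for a promoter call. The membrane-bound and secreted enzymes CA4, CA6, CA9, CA12 and CA14, the mitochondrial enzymes CA5A and CA5B, the cytosolic enzyme CA7 and the inactive member CA10 had 0 calls. Across all 15 genes of the family 3 were called, against the background of 42.2%.

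Of 4 genes listed for bicarbonate, water or gas transport, 4 were called, against 42.2% of all protein-coding genes. This count is too small to set the list apart. SLC4A1, the band 3 chloride-bicarbonate exchanger of the red cell, had a call 1 base upstream of its annotated start and no other. AQP1, a water channel, was called at -1 bp and RHAG, the Rh-associated glycoprotein, at -1 bp with a second call 468 bp downstream. SLC4A2, a related anion exchanger found in many tissues, was called 114 bp downstream. None of these genes carried a run: they held between 0 and 2 calls per strand with 500 bp added on either side, against 55 reverse calls at CA1 by the same count.

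**Figure D4:**
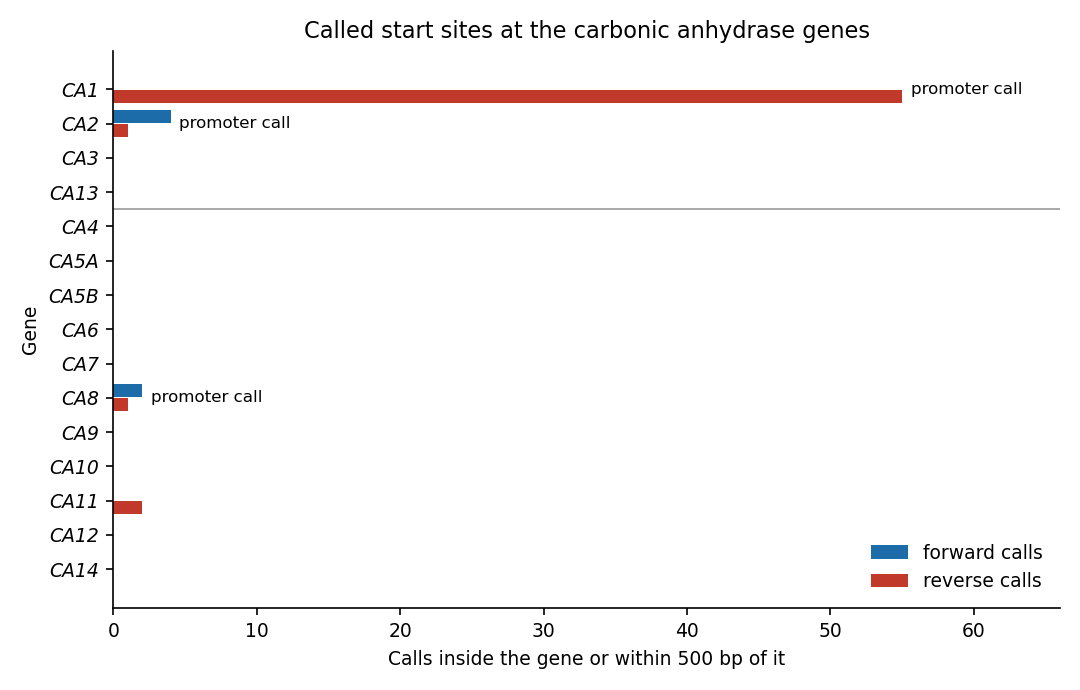
Number of forward and reverse calls in each of the 15 carbonic anhydrase genes with 500 bp added on either side (horizontal axis), with the 4 genes of the cluster above the line. CA1 has 55 reverse calls, CA2 has 4 forward calls and 1 reverse call, and of the others only CA8 and CA11 have any; genes with a promoter call are marked.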

How the data were processed

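PRO-seq was carried out on 5 HUDEP-2 libraries. Per the file headers, the authors called start sites with TSScall on 1 sorted, de-duplicated alignment of HUDEP-2 cells, whose name carries no edit and is no sample title, so the library or libraries behind the calls are unknown. Per the submitters' processing notes, the tools were SAMtools 1.17, deepTools 3.5.4, Picard and BWA 0.7.16a, and the build was hg38. For TSScall, neither version nor read minimum is given in the sources used here. The deposited values are positions of calls 1 base long. The deposited score was 0 in all 28283 calls, so the reads behind a call and the depth are unknown. Whether each call marks an initiation event was not tested.

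Positions are the end coordinates of the calls, read as 1-based. On each strand the commonest offset of a start call from the annotated end was -1 bp. Genes came from the RefSeq table of GRCh38.p14, which gives outer ends but, for chromosome 8, no strand or exons. The orientation of the carbonic anhydrase genes is background knowledge. No sequence is shown. An exact 95% interval is given for the paired shares of the CA1 run and of the other calls of the interval. Own-strand calls of a gene include those up to 500 bp upstream, and calls past its end were counted over 5 kb. For genes called at 1 end, the own strand was taken from the end that had the call, not from annotation. A gene whose end lies near a start of another gene can thus be counted on the wrong strand. No test was run, because the lists have no replicates. Scripts were tested on simulated calls.

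The members, lists and rule for named genes were chosen with earlier results of these data known. By that rule, named genes were the 4 cluster genes, all other RefSeq genes of the interval, the rest of the family, 4 transport genes, and TFRC, ITGA4 and SLC25A37 for comparison. The clusters and tiles were chosen after the values were seen. Scripts ran in Python 3.11.15 with matplotlib 3.10.9, scipy 1.17.1, pandas 2.3.3 and numpy 2.4.6.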

Additional observations from a re-analysis of the deposited data

How the results depend on the processing

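Of 16 alternatives run, 12 stayed near the value given. The density of calls in CA1 was 0.535 per kb with calls within 500 bp counted as 1 (27 calls) and 0.317 per kb within 1000 bp (16 calls), in place of 1.07, since merging removes calls by construction. The median gap in the interval was 522 bp and, with the calls of CA1 left out, 1750 bp. CA2 had 5 calls with 500 bp added on either side of the gene, in place of 3. The number of called genes stayed at 2 of 4 with windows of 100 and 1000 bp and with any own-strand call inside the gene. The paired share stayed at 6.58% with pair windows of 500 and 2000 bp and was 9.76% after merging at 500 bp. The strand difference of the tile was 61 with tiles moved by 100 kb and 59 with tiles of 1000 kb, both added after the data were seen, and ranked first each time. No paired analysis was possible because the lists have no column per library. Depth limits what absence of a call can show, and the lists do not give it.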

Other observations

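The identifiers of the calls were numbered along each strand, but inside dense groups the numbers did not follow position. The 63 calls of the CA1 run fell into 28 blocks whose numbers followed one another, and 9 of these blocks held more than 1 call. The largest had 15 calls, from 85373658 down to 85368678, and its lowest number belonged to the call at 85371039, inside the block. The block at the start of CA1 had 5 calls, and its lowest number belonged to the start call at 85378113. The block of 9 calls past the end of the gene had its lowest number at 85326339. In 6 of the 9 blocks the lowest number was that of the most upstream call. No gap inside such a block exceeded 734 bp anywhere on chromosomes 1 to 22 and X. How the numbers were assigned is not given in the sources used here, and no rank of the calls was drawn from them.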
